A study of Mus musculus with 32 samples.

Results

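In mouse liver RNA, 6 genes of phagocytes were followed through an experiment with SXB, sodium oxybate, a narcolepsy medicine made of gamma-hydroxybutyrate as its sodium salt. They were the receptors Siglece, Clec7a and Fcgr4 and the effector genes Ncf1, Ear2 and Wfdc17, taken by name from the deposited table of experiment P. These were 6 of the 242 genes in that table. The livers came from C57BL/6J mice, and 8 libraries were labelled vehicle and 8 SXB. The series asks how SXB bears on weight in obesity that is developing or established, and its 32 libraries include a second experiment, T. None of the 6 genes is among the 306 genes of the table of T, so their levels there were not analysed here. The labels give no diet, sex, age, dose or duration for these groups, and they do not say whether libraries came from separate mice, so the spread below is between libraries and may be technical.

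The table of P holds only genes that the authors selected on these libraries, with an unadjusted p under 0.05 and a log2 fold change past 1 up or down. The 6 genes were in turn chosen from it with their difference between SXB and vehicle already known. That difference is therefore given as a description, and no p-value for it is used as evidence. Values are the authors' normalised expression values per gene and library. Whether they are TPM or FPKM is not stated, so levels were not compared between genes. Sequencing depth is unknown.

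Phagocytes take up and destroy particles, dying cells and microbes, and in the liver most of them are Kupffer cells, the resident macrophages of the sinusoids. Their surface receptors sort targets by what they carry: Fc receptors bind antibody-coated particles, C-type lectins bind sugars of microbial walls, and Siglecs bind sialic acids of the body's own cells and mostly inhibit. Effector genes act after recognition, through the NADPH oxidase that makes superoxide and through secreted proteins.

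All 6 genes match the GENCODE M21 annotation of GRCm38, the build named in the submitters' processing notes. Siglece lies on chromosome 7 from 43651070 to 43660161 on the minus strand, Clec7a on chromosome 6 from 129461591 to 129472779 on the minus strand, and Fcgr4 on chromosome 1 from 171018920 to 171029761 on the plus strand between Fcgr2b and Fcgr3. Ncf1 lies on chromosome 5 from 134220053 to 134229625 on the minus strand, Ear2 on chromosome 14 from 44102654 to 44103534 on the plus strand, and Wfdc17 on chromosome 11 from 83703991 to 83706268 on the plus strand, next to its relative Wfdc18. Clec7a is annotated there as a polymorphic pseudogene and the other 5 as protein coding, while RefSeq lists Clec7a as protein coding.

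The values of some of these genes could hold reads of others. The transcript of Ear2 is 96.4% identical to that of Ear1 over an alignment of 713 bases, with 719 in the transcript, and 94.5% identical to that of Ear10 over 678 aligned bases, so its level is uncertain as that of a single gene. For Wfdc17 the closest transcript is that of Wfdc18, with 79.5% identity over 523 aligned bases. The 3′ part of Ncf1 shares 4303 bases with Gtf2ird2 on the opposite strand, and all 881 bases of Ear2 lie inside the noncoding gene Gm49101 on the opposite strand. The sources used here do not say whether strand was used in counting, so reads of such pairs cannot be told apart.

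As a description, the sequence before the start sites of the 3 receptor genes is shown, with one motif of myeloid genes marked. PU.1, a transcription factor of macrophages, binds sites with a GGAA core. The letters GAGGAA were searched on both strands (TTCCTC on the other strand) in the 250 bases before each RefSeq start (GRCm38.p6). The 3 windows are printed 5′ to 3′ on the strand of the gene, with these letters in capitals, and in Fcgr4 the capitals cover the longer match ACTTCCTC. They are chr7:43660162-43660411 for Siglece, chr6:129472786-129473035 for Clec7a, which has 2 starts in RefSeq of which the outer is used, and chr1:171018676-171018925 for Fcgr4.
Siglece: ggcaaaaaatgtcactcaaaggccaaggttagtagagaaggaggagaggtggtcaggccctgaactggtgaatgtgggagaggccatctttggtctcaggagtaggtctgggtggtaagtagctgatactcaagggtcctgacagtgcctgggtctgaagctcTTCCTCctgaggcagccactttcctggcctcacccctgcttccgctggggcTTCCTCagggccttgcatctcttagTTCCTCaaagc
Clec7a: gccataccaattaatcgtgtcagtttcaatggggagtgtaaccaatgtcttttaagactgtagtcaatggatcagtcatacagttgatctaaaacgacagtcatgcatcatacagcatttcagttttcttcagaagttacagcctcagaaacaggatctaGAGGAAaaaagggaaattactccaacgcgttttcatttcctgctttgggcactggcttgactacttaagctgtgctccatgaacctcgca
Fcgr4: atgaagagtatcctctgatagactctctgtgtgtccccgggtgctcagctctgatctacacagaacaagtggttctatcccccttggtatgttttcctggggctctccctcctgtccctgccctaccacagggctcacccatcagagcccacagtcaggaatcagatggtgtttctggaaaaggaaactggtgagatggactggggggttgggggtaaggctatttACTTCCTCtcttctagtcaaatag
Siglece holds 3 matches, beginning 87, 36 and 11 bases before the start, Clec7a holds 1 at 90 bases and Fcgr4 holds 1 at 22 bases. Of the effector genes Wfdc17 holds 1 at 39 bases, and the letters are in neither window of Ncf1 and Ear2. GAGGAA was thus in 4 of the 6 windows and is in 23.3% of all 32851 windows of this length. The longer form GAGGAAGT, whose other strand is ACTTCCTC, was in Fcgr4 alone of the 6 and is in 2.44% of all windows. TTGCGCAA, a palindrome bound by C/EBP factors, was in none of the 6 and is in 0.164% of all windows. A match is a description of letters, not a binding site.

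In the livers of experiment P, all 6 genes had a lower mean with SXB than with vehicle, by 1.91-fold for Ncf1 to 2.42-fold for Ear2. Most of the table went the same way: 83.1% of the 242 listed genes were lower. In each of the 6 genes every SXB library lay below the vehicle median, and every vehicle library lay above the SXB median. The share of listed genes with this pattern was not computed, and nothing is read from it in the 6. The groups did not overlap in 2 of the 6 genes, Ncf1 and Ear2, as in 2.89% of the listed genes; the rule used this contrast, so nothing is read from these shares. Fewer cells of a type and less RNA per cell cannot be told apart in bulk tissue.

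Siglece encodes an inhibitory receptor of myeloid cells that binds sialic acid. Its vehicle values ran from 1.78 to 4.6 with a median of 2.605, and its SXB values from 0.76 to 2.23 with a median of 1.43. Libraries 35 and 36 were the highest with vehicle, at 4.6 and 4.14, and the groups overlapped: SXB library 24 held 2.23 and vehicle library 31 held 1.78. The vehicle mean was 2.94 ± 1.00 (SD, n = 8) and the SXB mean 1.49 ± 0.546 (SD, n = 8), 1.98-fold lower. On the log2(value + 1) scale, which understates differences of low genes, SXB minus vehicle was -0.66 (SE 0.16 from limma).

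Clec7a encodes dectin-1, a receptor for beta-glucan of fungal walls. Its vehicle values ran from 0.49 to 1.57 with a median of 0.895, and its SXB values from 0.31 to 0.7 with a median of 0.425. Vehicle libraries 35, 34, 21 and 33 lay at 1.03 or above, while the other 4 held 0.49 to 0.76. Of those, library 31 at 0.76 lay above the highest SXB value, and the libraries at 0.49, 0.6 and 0.65 lay inside the SXB range. The vehicle mean of 1.01 ± 0.447 (SD, n = 8) stood against 0.464 ± 0.131 (SD, n = 8) under SXB, 2.18-fold lower (log2 difference -0.43, SE 0.12).

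Fcgr4 encodes an activating receptor for IgG. It ranged from 0.95 to 2.86 with vehicle (median 1.495) and from 0.41 to 1.28 with SXB (median 0.845). Of the 6 genes it had the smallest separation relative to spread, -1.58 pooled within-group SDs on the log2 scale, and only 4 SXB libraries lay below the lowest vehicle library. The mean went from 1.61 ± 0.675 (SD, n = 8) to 0.8125 ± 0.359 (SD, n = 8), 1.98-fold lower with SXB (log2 difference -0.51, SE 0.16).

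Ncf1 encodes the cytosolic organiser subunit of the phagocyte NADPH oxidase. Vehicle values ran from 0.77 to 1.49 (median 0.935) and SXB values from 0.36 to 0.68 (median 0.51), with no overlap. This gene varied least inside the vehicle group, with a coefficient of variation of 23.6% against 31.1% to 44.3% for the other 5 genes. Means of 1.01 ± 0.238 (SD, n = 8) and 0.526 ± 0.129 (n = 8) differed 1.91-fold (log2 difference -0.39, SE 0.07), or by -2.72 pooled SDs.

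Ear2 encodes a secreted ribonuclease of the eosinophil-associated family. It held 2.1 to 4.64 with vehicle (median 3.37) and 0.39 to 2.08 with SXB (median 1.46). The groups did not overlap, but the gap was narrow, between 2.08 in SXB library 20 and 2.1 in vehicle libraries 22 and 31. Of its vehicle libraries 3 held 2.1 to 2.12 and 5 held 3.16 or more. SXB library 23, at 0.39, was the lowest. Mean values were 3.26 ± 1.05 (SD, n = 8) for vehicle and 1.345 ± 0.515 (SD, n = 8) for SXB, 2.42-fold lower (log2 difference -0.86, SE 0.17).

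Wfdc17 encodes a small secreted protein of macrophages with a whey acidic protein domain. With vehicle it ran from 20.46 to 52.81 with a median of 33.2, and with SXB from 12.01 to 23.94 with a median of 14.8. One SXB library, 28, lay inside the vehicle range, and the other 7 were below all vehicle libraries. The log2 difference was -1.03 (SE 0.18), or -2.74 pooled SDs.

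**Figure D1:**
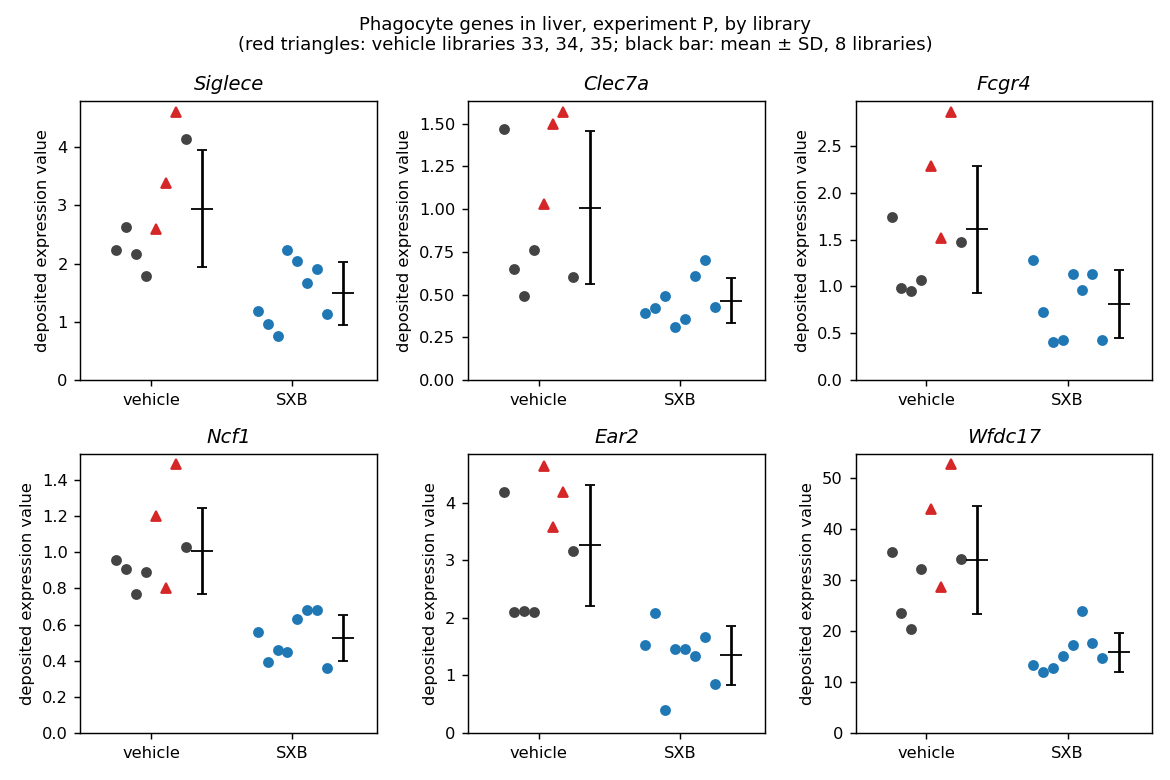
Deposited expression value (y axis, linear, from 0) of each of the 6 genes in the 8 vehicle and 8 SXB libraries of experiment P, 1 panel per gene; points are libraries, red triangles are vehicle libraries 33, 34 and 35, and black bars are the mean ± SD over 8 libraries. The groups do not overlap for Ncf1 and Ear2, and the single highest point is a red triangle in all 6 panels.

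In the authors' deposited table the log2 fold changes that brought these genes into the listing were -1.12 for Siglece, -1.01 for Clec7a, -1.03 for Fcgr4, -1.01 for Ncf1, -1.32 for Ear2 and -1.16 for Wfdc17. Ncf1 and Clec7a are thus just inside the bound of 1, and genes just outside it were not analysed here. In the authors' deposited table the adjusted p is 4.52e-05 for Wfdc17, 0.00104 for Ncf1, 0.00190 for Siglece, 0.00195 for Ear2, 0.0182 for Clec7a and 0.0792 for Fcgr4. It puts 5 of the 6 genes, all but Fcgr4, below 0.05. Of all 242 listed genes, 20.2% were lower with SXB and below 0.05 by it. In limma on log2(value + 1), fitted across all 242 genes, all 6 had an adjusted p below 0.05 (two-sided, Benjamini-Hochberg), beside 34.7% of the listed genes that were lower and passed. The rule used this contrast too, and nothing is read from either count.

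Vehicle libraries 33, 34 and 35 stood apart from the other 5 vehicle libraries in genes of the acute phase response, which the liver mounts in inflammation. Orm2, a secreted acute phase glycoprotein gene, held 140.1 to 896.8 in these 3 libraries and 8.03 to 10.4 in the other 5. With SXB it held 4.78 to 163.4, and SXB library 25, at 163.4, lay above vehicle library 35, at 140.1. On average the phagocyte genes were higher in these vehicle libraries too. The mean of libraries 33, 34 and 35 was above that of the other 5 vehicle libraries in 6 of 6 genes. For Fcgr4 these means were 2.22 and 1.24, for Clec7a 1.37 and 0.794, for Ear2 4.14 and 2.73, and for Wfdc17 41.8 and 29.2. They were 3.52 and 2.59 for Siglece and 1.16 and 0.912 for Ncf1, the smallest ratio of the 6 in Ncf1. The share of all listed genes with a higher mean in libraries 33, 34 and 35 was not computed. High vehicle values also help a gene into the listing as lower with SXB, so nothing is read from the count of 6. Library 35 was the highest vehicle library for 5 of the genes and library 33 for Ear2, although Orm2 was lower in library 35 than in 33 and 34. Library 34, with the highest Orm2, held 0.8 for Ncf1 and 28.59 for Wfdc17, below the means of the other 5 vehicle libraries. The order of libraries did not follow Orm2 throughout, since vehicle library 21, with 9.36 for Orm2, lay above the group median in 5 of the 6 genes.

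Without libraries 33, 34 and 35 all 6 genes were still lower with SXB, by 1.53-fold for Fcgr4 to 2.03-fold for Ear2. The folds were 1.74 for Siglece, 1.71 for Clec7a, 1.73 for Ncf1 and 1.85 for Wfdc17. On the log2(value + 1) scale the differences were then -0.53 for Siglece, -0.27 for Clec7a, -0.32 for Fcgr4, -0.33 for Ncf1, -0.67 for Ear2 and -0.84 for Wfdc17. Ncf1 and Ear2 again showed no overlap, as did 3.72% of the listed genes. Limma then left 3 of the 6 genes below an adjusted p of 0.05, the effectors Ncf1, Ear2 and Wfdc17, beside 20.7% of the listed genes as lower and passing. The receptors Siglece, Clec7a and Fcgr4 did not pass with these 5 vehicle libraries, with limma adjusted p-values of 0.0510, 0.0895 and 0.117, and a difference between receptors and effectors was not tested. These libraries were picked for high acute phase genes, in the vehicle group alone. The 6 genes also had higher means in them, so leaving them out makes the differences smaller. Fewer libraries remain as well, and what ended the 3 calls was not tested.

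Among the SXB libraries the mean log2(value + 1) over the 6 genes was highest in 29 and 28 (1.63 and 1.62) and lowest in 23 (1.11). Single genes differed from this order: Siglece was highest in library 24, Fcgr4 in 19 and Ear2 in 20. Library 29 lay above the SXB median in 6 of 6 genes and library 28 in 5, while library 23 held the lowest value for Siglece, Fcgr4 and Ear2. Library 30 held the lowest Ncf1, at 0.36. Orm2 was 11.7 in library 29 and 85.1 in library 28, against 4.78 in library 23 and 5.14 in library 30. The highest Orm2 with SXB was 163.4, in library 25, so the order of these libraries did not follow Orm2 throughout either.

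Whether the genes varied together inside a treatment group was examined apart from the difference between groups. With vehicle, all 15 pairs of the 6 genes correlated positively, with Pearson's r of 0.34 to 0.92 (median 0.64) over 8 libraries. Other pairs of listed genes were not examined within the vehicle group, so whether this is particular to the 6 is unknown. Of the 15 pairs, 4 passed an exact permutation test adjusted over the 30 pairs of both groups, all among Fcgr4, Ncf1, Ear2 and Wfdc17. The IgG receptor gene Fcgr4 and Wfdc17 had r = 0.92 and Spearman's rho = 0.93 (exact permutation, two-sided, p = 0.00129 and 0.00223, adjusted p = 0.0260 and 0.0670). For Fcgr4 and Ear2, r was 0.90 and rho 0.88 (exact permutation p = 0.00278 and 0.00714, adjusted p = 0.0260 and 0.0714). The oxidase gene Ncf1 had r = 0.90 and rho = 0.90 with Wfdc17 (exact permutation p = 0.00174 and 0.00456, adjusted p = 0.0260 and 0.0685), and r = 0.88 and rho = 0.79 with Fcgr4 (exact permutation p = 0.00347 and 0.0279, adjusted p = 0.0260 and 0.167). By Spearman's rho 0 of the 30 pairs passed the exact permutation test after adjustment, with 6 vehicle pairs and 1 SXB pair at an unadjusted p below 0.05.

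In each of the 4 pairs the 2 libraries farthest from the median of the first gene were 33 and 35, and without them r was 0.77 for Fcgr4 and Wfdc17, 0.98 for Fcgr4 and Ear2, 0.72 for Ncf1 and Wfdc17 and 0.44 for Fcgr4 and Ncf1 over 6 libraries. Thus r was lower in 3 of the pairs, most in Fcgr4 and Ncf1, and higher in Fcgr4 and Ear2. With only 6 libraries no pair passed (exact permutation, smallest adjusted p = 0.25), and 2 of the 15 vehicle pairs had an unadjusted p below 0.05. Siglece followed the others least, with r of 0.34 to 0.59. Vehicle libraries 33, 34 and 35 are a cluster of 3 by Orm2, and the 5 others are too few for a correlation of their own.

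With SXB, r was -0.04 to 0.78 (median 0.47), 13 of the 15 pairs were positive, and 0 passed after adjustment by either measure, with 2 at an unadjusted exact permutation p below 0.05. The highest were Fcgr4 and Ncf1 at r = 0.78 (rho = 0.61) and Ncf1 and Wfdc17 at r = 0.75 (rho = 0.73), both with an adjusted p of 0.144 by exact permutation of r. Clec7a and Ear2, at 0.77 with vehicle, had r = -0.04 with SXB; the difference between the groups was not tested.

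**Figure D2:**
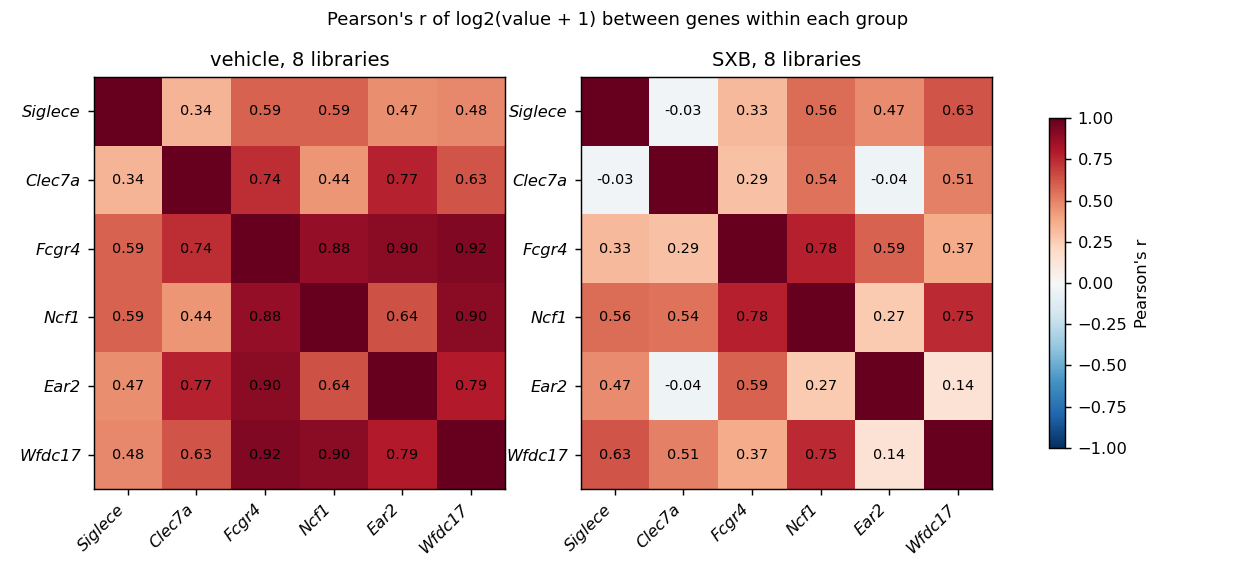
Pearson's r of log2(value + 1) between each pair of the 6 genes, within the 8 vehicle libraries (left) and the 8 SXB libraries (right); the colour scale runs from -1 to 1. All vehicle values are positive, from 0.34 to 0.92, and the SXB values run from -0.04 to 0.78.

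The listed genes most like each gene were taken by Spearman's rho over all 16 libraries after each group's mean was removed, as a description without a test, since these values share library and depth. Clec7a was most like Ctss, which encodes the lysosomal protease cathepsin S (rho = 0.84), followed by the interferon-inducible gene Ifi211 (0.82) and C1qb, a chain of complement C1q (0.82). For Fcgr4 the order was C1qb (0.83), Ncf1 (0.80) and Wfdc17 (0.77), and for Wfdc17 it was Lyz2, the lysozyme of myeloid cells (0.81), Ncf1 (0.79) and Fcgr4 (0.77). Ncf1 was most like Fcgr4 (0.80) and Wfdc17 (0.79), then the mesothelial gene Msln (0.73), which was higher with SXB (log2 difference 0.14). Siglece was most like the immunoglobulin heavy chain gene Ighg2c (0.78), then Tmem26 (0.75) and Lyz2 (0.73), and Ear2 like Pram1 (0.75), Gvin1 (0.74) and Fcgr4 (0.73). With Orm2 rho was lower than with these top genes, from 0.42 for Wfdc17 to 0.65 for Fcgr4. It was above the median rho with all listed genes, which was 0.11 for Ncf1 to 0.26 for Clec7a.

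The relatives and partners of the 6 genes were looked up in lists of each family. In these lists a gene that fell was lower with a limma adjusted p below 0.05, as were 34.7% of the listed genes. All had been selected on this contrast, so such a call is a description. Of 19 other C-type lectin receptors, 3 are in the table: Clec4n, the dectin-2 gene, and Clec4a2, an inhibitory receptor gene, fell, and Clec4d did not pass. Clec4n went from 0.466 ± 0.102 (SD, n = 8) to 0.1925 ± 0.104 (SD, n = 8) under SXB, 2.42-fold lower without overlap (log2 difference -0.30, SE 0.06, limma adjusted p = 0.00159). Clec4a2 was 2.52-fold lower (-0.33, SE 0.11, limma adjusted p = 0.0273), and Clec4d had a difference of -0.09 (SE 0.07, limma adjusted p = 0.208). Without vehicle libraries 33, 34 and 35 Clec4n still passed (-0.27) and Clec4a2 did not (-0.28). Of 8 other Siglecs only Siglecf, the eosinophil receptor gene, is listed, at 0 to 0.07 with vehicle and 0 to 0.03 with SXB, and it did not pass (-0.03, SE 0.02, limma adjusted p = 0.0878).

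No other Fc receptor gene of 8, no other NADPH oxidase subunit gene of 6, no other ribonuclease gene of 9 and no other whey acidic protein gene of 7 is in the table, so whether Fcgr4, Ncf1, Ear2 and Wfdc17 moved with their families could not be seen. Of 14 signalling genes downstream of such receptors 1 is listed, the adaptor gene Lcp2, which fell 1.85-fold (-0.27, SE 0.08, limma adjusted p = 0.0209). Of 16 pattern recognition receptor genes 4 are listed and all 4 fell, Marco, Cd14, Tlr1 and Tlr13, in a table where 34.7% of the genes were lower and passed. Cd14, the co-receptor gene for bacterial lipopolysaccharide, went from 1.70 ± 0.992 to 0.791 ± 0.175 (-0.51, SE 0.18, limma adjusted p = 0.0412), Tlr1 differed by -0.15 (SE 0.05, limma adjusted p = 0.0432) and Tlr13 by -0.10 (SE 0.03, limma adjusted p = 0.0271). Without vehicle libraries 33, 34 and 35 Marco passed (-1.003), while Lcp2 (-0.16), Cd14 (-0.15), Tlr1 (-0.15) and Tlr13 (-0.06) did not. The calls of Cd14 and Tlr1 also ended in 9 of the 16 omissions of a single library each, and that of Tlr13 in 2, without vehicle library 35 or SXB library 19. These genes were selected on the same libraries, so their counts are not independent evidence. On the log2(value + 1) scale the median difference was -0.58 over the 6 genes and -0.17 over all listed genes, most of which are low. The median log2 ratio of group means, which has no pseudocount, was -1.04 over the 6 genes and -1.18 over all listed genes. By that ratio the 6 genes did not fall more than the listed genes.

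The 5 listed markers of resident liver macrophages, of 15 sought, were Adgre1, Cd5l, Timd4, Marco and C1qb. All 5 passed as lower, beside 34.7% of the listed genes. They also did without vehicle libraries 33, 34 and 35, beside 20.7%. Marco is also counted among the pattern recognition receptor genes above, so these counts are not separate. The summed value of the 5 markers ran from 45.6 to 100.4 with vehicle and from 29.1 to 44.1 with SXB. Set against the mean log2 of these markers in the same library, with a pseudocount of 0.01 chosen after seeing the data, SXB minus vehicle was 0.19 for Siglece, 0.17 for Clec7a, 0.17 for Fcgr4, 0.26 for Ncf1, -0.15 for Ear2 and 0.11 for Wfdc17. With the pseudocount of 1 the same differences were 0.07, 0.30, 0.22, 0.34, -0.13 and -0.30, of the opposite sign for Wfdc17. On the scale with 0.01 the markers differed by -1.19 and the 6 genes by -0.93 to -1.34. Both sets passed the same selection for a log2 fold change beyond 1, which by itself brings their values close, so nothing is read from how near they are.

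Of 17 markers of recruited monocytes and macrophages 6 are listed. Of these 3 fell, Lyz2, Ctss and Lgals3, while Trem2, Gpnmb and Ccl6 did not pass. Lyz2 is a gene of myeloid cells at large, and whether the 3 genes mark recruited cells in these livers was not tested. The 3 calls held without vehicle libraries 33, 34 and 35, and Gpnmb was then 0.02 higher with SXB. Their summed value ran from 23.6 to 71.5 with vehicle and from 16.15 to 25.96 with SXB. For neutrophils, which also use Ncf1, S100a9 and Ngp of 14 markers are listed and neither passed (log2 differences -0.58 and -0.19, or 0.25 and 0.004 without those 3 libraries); their sum ran from 0.66 to 12.1 with vehicle and from 0.46 to 4.52 with SXB. Eosinophil and mast cell markers were listed only by Siglecf, near 0 in every library. Of 10 B and plasma cell markers 3 are listed, with a sum of 16.2 to 96.5 with vehicle and 6.63 to 21.4 with SXB, and Igkc and Iglc2 fell, though Iglc2 did not pass without those 3 libraries (-0.50), without vehicle library 35 alone or without SXB library 19 alone. The part of these cell types in the difference of the 6 genes was not tested. None of the 7 hepatocyte markers, of the 11 T and natural killer cell, the 9 dendritic cell or the 11 endothelial and stellate markers sought is in the table, so the labelled tissue could not be checked on hepatocyte genes.

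**Figure D3:**
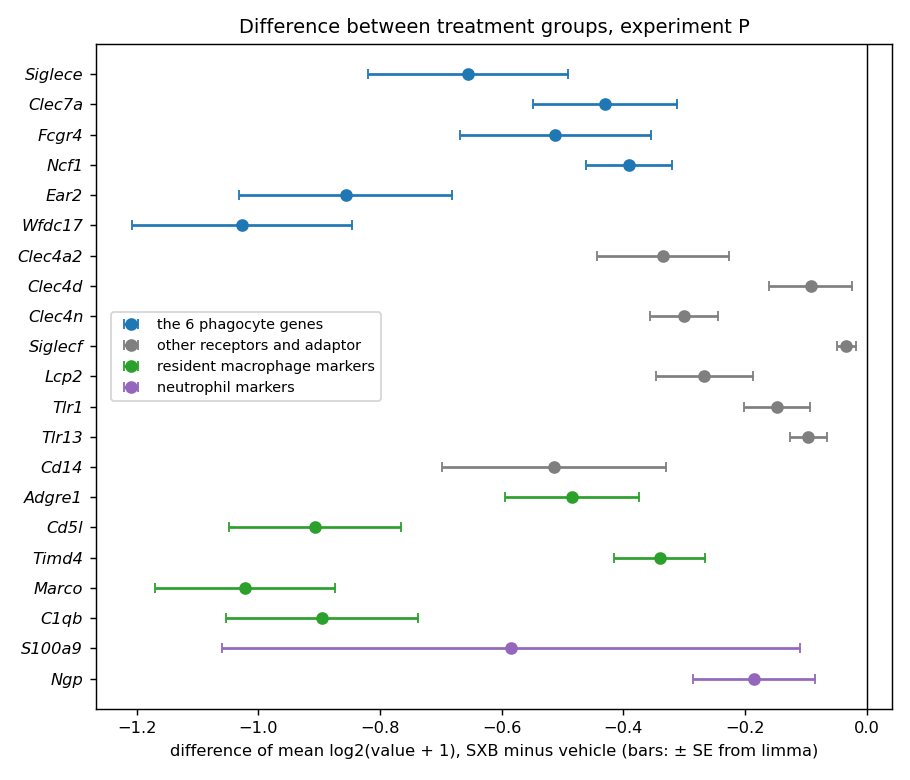
Difference of mean log2(value + 1) between SXB and vehicle (x axis, negative is lower with SXB) for the 6 phagocyte genes, other listed receptors and an adaptor, resident macrophage markers and neutrophil markers; points are differences over 8 against 8 libraries and bars are ± SE from limma. All points lie below 0, from -0.03 for Siglecf to -1.03 for Wfdc17 (S100a9 and Ngp lie above 0 without vehicle libraries 33, 34 and 35), on a scale that shrinks differences of genes with low values.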

How the data were processed

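Per the labels' protocols, TRIzol extracts of liver gave paired reads of 150 bases on an Illumina HiSeq. Tools in the submitters' processing notes are DESeq2, RSEM, StringTie, HISAT2 and fastp, with no version or role, and the build is GRCm38. The library columns hold a signal, the authors' normalised expression value per gene, rounded to 0.01. The authors also deposited a fold change (a ratio), a log2 fold change, a p-value and an adjusted p-value, under a header shifted by 1 column. As the tables hold selected genes, depth per library is unknown and no counting interval is given.

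Groups follow the treatment label. Differences and standard errors came from limma 3.58.1 (R 4.3.3) on log2(value + 1) across the 242 genes of P, with Benjamini-Hochberg adjustment at 0.05. All 242 genes had been selected on this same contrast. The adjustment therefore cannot hold its error rate at that threshold, and passing it is only a description. Correlations used all 40320 pairings of 8 libraries (Python 3.11.15, numpy 2.4.6, scipy 1.17.1). Spearman's rho between libraries was 0.52 to 0.87, so none was a duplicate. Identity between transcripts came from blastn on GENCODE M21 transcripts. The 6 genes, the 18 lists and the tests were chosen with earlier results of these data known. Genes named were the 6, the 3 listed genes most like each, listed genes of the lists, and Orm2. Alternatives were other pseudocounts, filters and fits, medians, and libraries left out. A level relative to macrophage markers at a pseudocount of 0.01 was added after seeing the data. Protein sequences were not used here.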

Additional observations from a re-analysis of the deposited data

Results flagged for a closer look

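In 12 groups of 8 libraries (6 genes, 2 treatments), 1 library stood far from the others: SXB library 28 held 23.94 for Wfdc17, with the next highest at 17.61 in library 29, a gap of 0.531 of the group's range, just past the limit for a group of 8. Chance flags about 1 in 20 groups. In the same library Ncf1, at 0.68, shared the highest SXB value with library 29, and Orm2 was 85.1.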

How the results depend on the processing

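The differences of all 6 genes stayed negative with smaller pseudocounts, with medians, without libraries 33, 34 and 35 and with any 1 library left out. A smaller pseudocount enlarged them by construction, as it shrinks low values less. With 0.1 the differences were -0.90 for Clec7a, -0.92 for Fcgr4, -0.82 for Ncf1 and -1.26 for Ear2, and with 0.01 they were -0.999 for Siglece, -1.02 for Clec7a, -1.01 for Fcgr4, -0.93 for Ncf1 and -1.34 for Ear2. Relative to the resident macrophage markers, another quantity, the differences were 0.0746 for Siglece, 0.30 for Clec7a, 0.22 for Fcgr4, 0.34 for Ncf1, -0.13 for Ear2 and -0.30 for Wfdc17 at a pseudocount of 1, which shrinks the low genes more than the markers; at 0.01 they were 0.19, 0.17, 0.17, 0.26, -0.15 and 0.11. With single libraries left out the ranges were -0.72 to -0.58 for Siglece, -0.49 to -0.38 for Clec7a, -0.57 to -0.43 for Fcgr4, -0.42 to -0.34 for Ncf1, -0.92 to -0.75 for Ear2 and -1.12 to -0.93 for Wfdc17; 2 or 3 of the 6 genes had groups without overlap, all 6 passed limma each time, and 68 to 101 listed genes did. Limma passed 94 of the 242 genes, 26 when a mean of at least 1 was required, which leaves fewer genes to test, and 54 without libraries 33, 34 and 35, when 3 of the 6 passed. Of the 4 vehicle correlations that passed, 0 did without the 2 farthest libraries, with fewer libraries. No paired analysis was possible because the labels give no number shared between vehicle and SXB libraries. Values of low genes are rounded to 0.01, which limits genes such as Siglecf.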

Other observations

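The fold changes in the authors' deposited table and those recomputed from the library values differ, and the cause was not tested. In the authors' deposited table all 6 genes are more than 2-fold lower with SXB, from 2.01-fold for Ncf1 to 2.50-fold for Ear2, which the listing required. The ratio of arithmetic means of the deposited library values was below 2 for 3 of the 6 genes, at 1.98 for Siglece, 1.98 for Fcgr4 and 1.91 for Ncf1, where the authors' deposited table gives 2.17, 2.05 and 2.01. For Clec7a the order was the other way, 2.18 from the library values against 2.02 in the authors' deposited table.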
